A study of Mus musculus with 12 samples.

Results

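The genes described are the 5 subunits of the transcription factor NF-kB (Nfkb1, Nfkb2, Rel, Rela and Relb) and 5 genes that restrain or tune it (Nfkbia, Nfkbib, Nfkbie, Nfkbiz and Tnfaip3). They are the 10 rows with these gene symbols among the 46986 features of the expression table, with 1 row for each symbol. They were chosen by name, with earlier results of these data known, so the shares of them called are a description. RNA was sequenced from hematopoietic stem cells (HSCs), the cells that renew all blood lineages, sorted from bone marrow of C57BL/6 mice aged 12 weeks. The 12 libraries form 4 groups of 3. Control mice received neither agent. The antibiotics group was given 4 broad antibiotics, ampicillin, neomycin, metronidazole and vancomycin, in its water over 4 to 6 weeks. The control 5-FU group received 5-fluorouracil, an antimetabolite that kills dividing marrow cells, at 200 mg/kg into a vein, and its HSCs were taken on day 12 of recovery. The antibiotics 5-FU group received the antibiotics and then 5-FU at the same dose and was taken on the same day. Each library was made from 2000 sorted cells with SMART-Seq v4, a kit for very low input primed on the poly(A) tail. Whether each library stands for its own animal is not stated in the labels, so the p-values reflect the spread among these libraries alone, which may be technical. In such bulk samples, fewer cells of a type and less RNA per cell cannot be told apart.

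NF-kB proteins work as pairs drawn from the subunits. RelA, c-Rel and RelB carry the domain that activates transcription, while Nfkb1 and Nfkb2 encode the precursors p105 and p100, which are processed to the DNA-binding partners p50 and p52. In resting cells the IkB proteins, encoded by Nfkbia, Nfkbib and Nfkbie, hold the pairs in the cytoplasm. Receptors for cytokines and microbial products activate the IkB kinases, which mark the IkB proteins for destruction, so that the freed pairs enter the nucleus and bind DNA at kB sites. Several targets are the pathway's own brakes, among them Nfkbia and Tnfaip3, the gene for the ubiquitin-editing enzyme A20, and transcripts of these genes are widely used as readouts of the pathway. In HSCs NF-kB signalling is known for its part in survival and in responses to inflammation.

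Because several of these genes are known targets of NF-kB, the stretches before their start sites are shown first. RefSeq promoter windows on the GRCm38.p6 build, from 250 bases before to 50 bases after the start, were at hand for 7 of the 10 genes, as 10 windows. The 10-base kB consensus was searched on both strands, counting overlapping matches. It was found in 1480 of 32851 windows of all genes, or 4.51%, and in 7 of the 10 windows of these genes. The 5 genes with a match were Nfkb2, Rel, Nfkbia, Nfkbie and Tnfaip3. The windows of Rela and Nfkbib held no match, which says only that these letters are not in them. A match is a description of the sequence and no evidence of binding. The 250 bases before the start of Nfkbia, the member with the highest level, are shown whole (chr12:55492648-55492897, minus strand), with the matching bases in capitals. The first capital lies 29 bases before the start.
Nfkbia: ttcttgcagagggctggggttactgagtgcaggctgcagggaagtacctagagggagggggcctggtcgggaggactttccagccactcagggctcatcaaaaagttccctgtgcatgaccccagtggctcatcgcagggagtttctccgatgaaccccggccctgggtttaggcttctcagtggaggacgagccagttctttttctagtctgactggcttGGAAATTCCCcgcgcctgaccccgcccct

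Matches of the other 4 genes are shown with 10 bases on each side, 5′ to 3′ on the strand of the gene, to let the cores be compared. The Rel match shown (chr11:23771042-23771071, minus strand) begins 92 bases before the start, and the Nfkbie match (chr17:45555584-45555613, plus strand) begins 106 bases before it. Nfkb2 has matches at 39 bases (chr19:46304688-46304717, plus strand) and 11 bases (chr19:46304716-46304745, plus strand) before its first start, and another near its second start (chr19:46305695-46305724, plus strand), while a further match 236 bases before the second start is not shown. Matches that overlap the ones shown, shifted by 1 base, lie at 91 bases before the Rel start and at 38 bases before the first Nfkb2 start. The Tnfaip3 matches begin 125 bases (chr10:19015516-19015545, minus strand) and 12 bases (chr10:19015403-19015432, minus strand) before the start.
Rel: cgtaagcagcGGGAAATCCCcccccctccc
Nfkbie: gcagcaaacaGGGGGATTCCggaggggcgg
Nfkb2, first site: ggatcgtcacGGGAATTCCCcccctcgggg
Nfkb2, second site: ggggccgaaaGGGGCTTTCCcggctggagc
Nfkb2, site near the second start: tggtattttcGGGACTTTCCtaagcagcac
Tnfaip3, upstream site: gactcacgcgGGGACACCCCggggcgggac
Tnfaip3, site next to the start: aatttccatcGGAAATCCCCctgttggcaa

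Expression is given in RPKM, reads scaled to the length of the gene and to the depth of the library, as deposited, so levels are per length. Which length was used is not given in the sources used here. This matters most for Nfkb1, whose exons span 12061 bases together (GENCODE M21) against 4149 in its longest transcript, a ratio of 2.91, while the ratio is 1.0 to 1.22 for the other 9. The place of Nfkb1 in an order of levels and its share of the subunits therefore depend on that choice, whereas the fold between libraries does not. Depth is not stated. The steps between low values gave estimates of 27.4 to 54.0 M reads per library. Taking the joined exons as the length, the estimated reads behind a value ranged from 33 to 99 for Nfkbiz, the shallowest member, to between 1204 and 4639 for Nfkbia. The antibiotics libraries, at 28.9 to 37.3 M reads, were all shallower than the control libraries, at 43.8 to 54.0 M. Control 5-FU replicate 1 stood apart. Over 8553 genes its correlations within the group were 0.971 and 0.972, against 0.989 between replicates 2 and 3. Replicate 1 was also the shallowest of the 12 libraries, at an estimated 27.4 M reads, against 53.25 and 40.9 M in replicates 2 and 3. The part of depth in this was not tested. The defining HSC genes were present in every group, with Procr at 15.9 to 31.6 RPKM and Hlf at 4.47 to 7.82 RPKM over the 12 libraries, while Mecom stayed at 0.269 to 0.550 RPKM. The i7 indexes of the 5-FU libraries were not used for any other library, so index and 5-FU cannot be told apart.

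The order of the mean RPKM levels was the same in all 4 groups: Nfkbia, Rela, Nfkbie, Nfkb2, Nfkbib, Nfkb1, Tnfaip3, Rel, Relb and Nfkbiz. Nfkbia stood highest, at 34.2 ± 4.88 RPKM in control libraries (SD, n = 3). Rela followed at 10.6 ± 0.135 RPKM. Nfkbiz, which encodes the nuclear protein IkB-zeta, was lowest and never reached 1 RPKM. Most neighbours in this order were separated by more than the spread of their libraries. The exceptions were Rel and Relb in the control, antibiotics and antibiotics 5-FU groups, Nfkbie and Nfkb2 in control 5-FU, and Nfkb1 and Tnfaip3 in antibiotics and in control 5-FU, whose libraries overlapped.

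**Figure D1:**
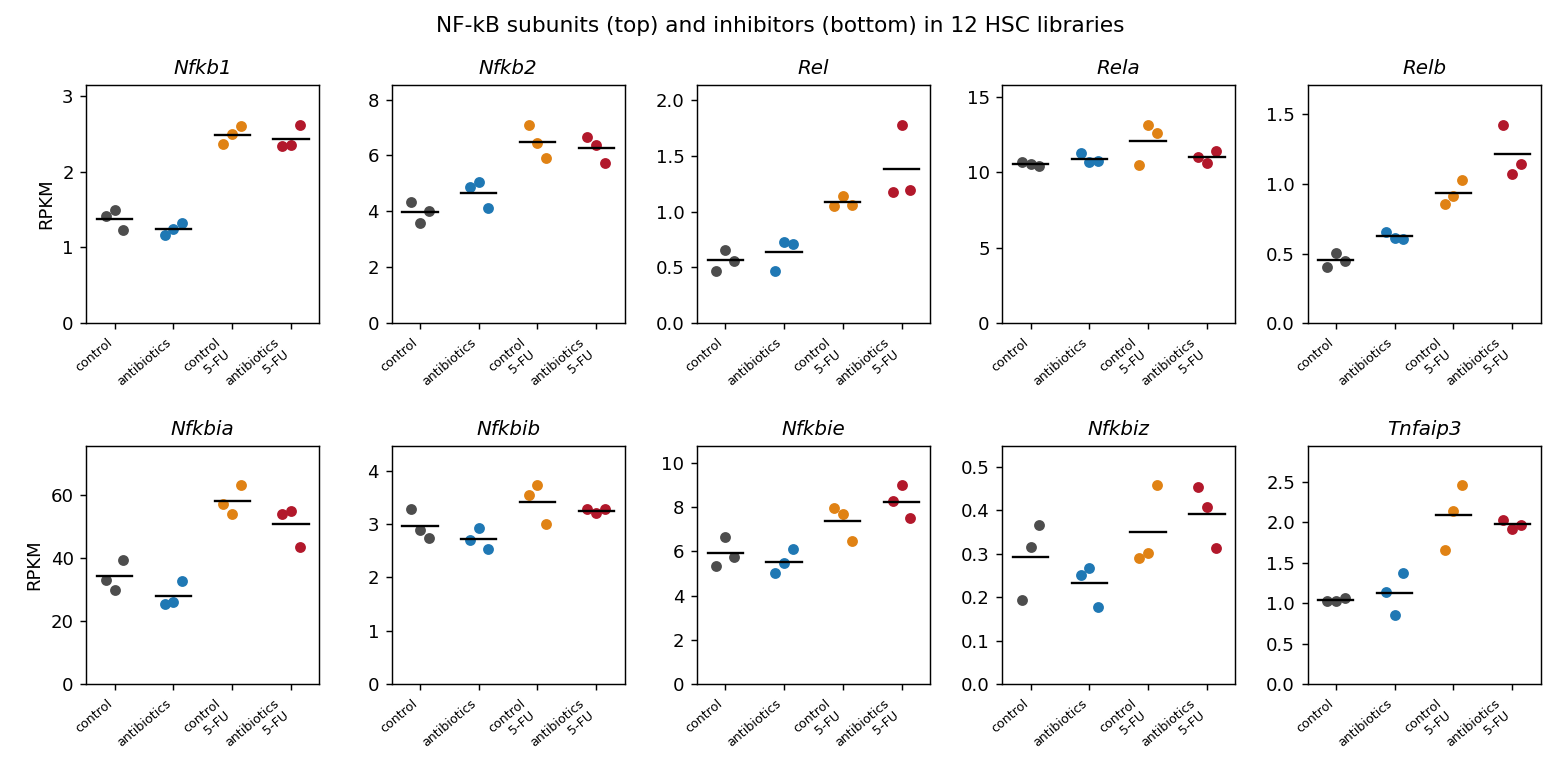
Expression of each of the 10 genes in RPKM on a linear axis from 0, with 1 point per library and a bar at the mean of the 3 libraries of each group. Nfkb1, Nfkb2, Rel, Relb, Nfkbia and Tnfaip3 lie higher in all 6 libraries with 5-FU than in all 6 without, while the Rela groups overlap and Nfkbiz stays below 0.5 RPKM.

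On day 12 after 5-FU, 4 of the 5 subunits and the feedback inhibitors Nfkbia and Tnfaip3 stood higher than at steady state, with and without antibiotics. Rela, the most abundant subunit, did not pass the test in either case. Differences were tested on log2(RPKM + 1) with limma over the 8553 genes that reached 1 RPKM in at least 3 libraries, and a gene was called at an adjusted p under 0.05. In control mice 6 of the 9 members tested rose after 5-FU (Nfkb1, Nfkb2, Rel, Relb, Nfkbia and Tnfaip3) and none fell, where 9.74% of all tested genes rose and 11.8% fell. With antibiotics 7 of 9 rose, the same 6 and Nfkbie, where 13.7% of all tested genes rose and 16.5% fell. The groups did not overlap for 6 of 9 members in control mice (18.6% of all genes, higher after 5-FU) and for 8 of 9 with antibiotics (23.1%). Nfkbiz did not pass the filter. Rel and Relb passed it only through libraries with 5-FU. Rel reached 1 RPKM in all 6 of these and so had to be higher there. Relb did so in the antibiotics 5-FU libraries and in control 5-FU replicate 3 alone. The filter thus forced its rise with antibiotics but not in control mice. Among the 7 other members tested, 4 rose in control mice and 5 with antibiotics.

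Leaving out Rel and Relb, the changes of the other 7 members had a median of 0.55 on the log2(RPKM + 1) scale in control mice, from 0.15 for Nfkbib to 0.75 for Nfkbia, against a median of 0.0045 over all tested genes. With antibiotics their median was 0.49, from 0.01 for Rela to 0.84 for Nfkbia, against -0.014 over all genes. Averaged over both antibiotic states, 8 of 9 members rose, or 6 of 7 without Rel and Relb, where 20.2% of all tested genes did, and Rela was the member not called (0.09 ± 0.056, adjusted p = 0.209). Without control 5-FU replicate 1, the library that stood apart, 7 members were called in control mice and 9 in the average, Rela being the addition in each (0.26, adjusted p = 0.0188, and 0.14, adjusted p = 0.0288). In that fit 908 and 1812 of the 8553 tested genes rose in these comparisons, and the members called include Rel and Relb. When the RPKM values were rescaled to a common total (TPM), all 9 members were called in control mice and 8 with antibiotics. This rescaling moved the median of all genes to 0.18 and 0.15, and in control mice the called genes then split into 1889 higher and 441 lower, against 833 higher and 1013 lower as deposited. With antibiotics the split was 2137 higher and 746 lower, against 1175 and 1411. Relative to the shifted median, Rela changed by 0.19 and 0.04 and Nfkbia by 0.77 and 0.88 on the TPM scale in the respective comparisons. Centring each library on its median gave 683 higher of 2011 called genes in control mice.

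Among the subunits, Nfkb1 (chromosome 3, 135584655 to 135691547, minus strand; positions are on mm10), the gene of p105 and p50, was at 1.42, 1.49 and 1.23 RPKM in control libraries and at 2.37, 2.496 and 2.60 RPKM in control 5-FU libraries. It was at 1.16, 1.24 and 1.32 RPKM with antibiotics and at 2.33, 2.35 and 2.62 RPKM in antibiotics 5-FU libraries. All 6 libraries with 5-FU lay above all 6 without. The mean rose 1.80-fold in control mice and 1.96-fold with antibiotics, with changes in log2(RPKM + 1) of 0.55 ± 0.069 (SE, adjusted p = 0.000779) and 0.62 ± 0.069 (adjusted p = 0.00023). Gm43430, an unproven transcript inside Nfkb1 on the same strand, was at 0.00746 to 0.339 RPKM. The addition of 1 RPKM makes these log2 changes smaller than the fold for genes at this level, and with a pseudocount of 0.1 they were 0.81 and 0.92.

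Nfkb2 (chromosome 19, 46304737 to 46312090, plus strand) encodes p100 and p52, the subunit of the slower pathway driven by the kinase NIK. Its control libraries were at 4.32, 3.57 and 4.01 RPKM and its control 5-FU libraries at 7.10, 6.45 and 5.91 RPKM. The antibiotics libraries, at 4.86, 5.04 and 4.13 RPKM, also lay below the antibiotics 5-FU libraries, at 6.66, 6.38 and 5.74 RPKM. The rise was 1.64-fold in control mice, or 0.59 ± 0.093 on the log2 scale (adjusted p = 0.00216), and 1.34-fold with antibiotics, or 0.36 ± 0.093 (adjusted p = 0.0145). The second of these calls was lost without antibiotics 5-FU replicate 1 (adjusted p = 0.0528) or replicate 2 (0.0506). Between the 2 changes the difference, with antibiotics less without, was -0.23 ± 0.13 and was not called (adjusted p = 0.655).

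Rel (chromosome 11, 23736847 to 23770970, minus strand) encodes c-Rel, a subunit best known from lymphocytes, and was low. It was at 0.472, 0.659 and 0.560 RPKM in control and at 1.06, 1.14 and 1.06 RPKM in control 5-FU libraries. With antibiotics it was at 0.473, 0.728 and 0.712 RPKM, and with both agents at 1.18, 1.78 and 1.19 RPKM. The groups with and without 5-FU did not overlap, and antibiotics 5-FU replicate 2 was the highest of the 12 libraries. The log2 changes were 0.42 ± 0.10 (adjusted p = 0.0175, 1.93-fold) in control mice and 0.54 ± 0.10 (adjusted p = 0.00368, 2.17-fold) with antibiotics. Rel passed the filter only through libraries with 5-FU and so had to be higher there, so these p-values add no support. The control call was lost without the filter on low values (adjusted p = 0.0525), without control replicate 1 (0.0578) and without control replicate 3 (0.0543). A pseudocount of 0.1 gave 0.85 and 1.002.

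Relb (chromosome 7, 19606217 to 19629438, minus strand), the usual partner of p52, was also low, at 0.403, 0.504 and 0.447 RPKM in control libraries. Control 5-FU libraries were at 0.857, 0.916 and 1.03 RPKM. It stood at 0.655, 0.615 and 0.608 RPKM with antibiotics and at 1.43, 1.07 and 1.14 RPKM with both agents. Each group was thus separate from every other. After 5-FU Relb rose 2.07-fold in control mice, by 0.41 ± 0.076 on the log2 scale (adjusted p = 0.00454), and 1.94-fold with antibiotics, by 0.44 ± 0.076 (adjusted p = 0.00192). Relb passed the filter only through libraries with 5-FU, which forced the rise with antibiotics, so the p-value of that rise adds no support. A pseudocount of 0.1 gave 0.91 and 0.85.

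Rela (chromosome 19, 5637483 to 5648130, plus strand), the main activating subunit of the fast pathway, was the exception. It was at 10.7, 10.6 and 10.4 RPKM in control libraries and at 10.51, 13.2 and 12.6 RPKM after 5-FU. With antibiotics it was at 11.3, 10.7 and 10.7 RPKM, and with both agents at 11.004, 10.6 and 11.4 RPKM. The groups overlapped in both 5-FU comparisons. The log2 change was 0.17 ± 0.080 in control mice (95% confidence interval -0.0022 to 0.35, adjusted p = 0.142) and 0.01 ± 0.080 with antibiotics (-0.16 to 0.19, adjusted p = 0.937). Control 5-FU replicate 1 decided the first value, which was 0.26 and called without that library (adjusted p = 0.0188). Rescaling to TPM also gave a call in control mice, at 0.36 (adjusted p = 0.0198).

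Among the inhibitors, Nfkbia (chromosome 12, 55489411 to 55492647, minus strand) encodes IkB-alpha, which is destroyed on activation and made anew as an early NF-kB target. It was at 33.1, 29.9 and 39.5 RPKM in control and at 57.1, 54.1 and 63.1 RPKM in control 5-FU libraries. The antibiotics libraries were at 25.4, 25.9 and 32.8 RPKM and the antibiotics 5-FU libraries at 53.9, 55.1 and 43.4 RPKM. Every library with 5-FU was above every library without it. Nfkbia rose 1.70-fold in control mice, by 0.75 ± 0.13 on the log2 scale (adjusted p = 0.00368), and 1.81-fold with antibiotics, by 0.84 ± 0.13 (adjusted p = 0.00129). Of all tested genes 98.2% and 98.1% had a lower change on this scale, which shrinks the changes of genes at low levels. By fold, Nfkbia changed less than Nfkb1, Rel and Relb in both comparisons.

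Tnfaip3 (chromosome 10, 19000910 to 19015657, minus strand), the gene of A20, was at 1.02, 1.02 and 1.06 RPKM in control and at 1.66, 2.14 and 2.45 RPKM in control 5-FU libraries. It was at 1.14, 0.855 and 1.37 RPKM with antibiotics and at 2.03, 1.92 and 1.97 RPKM with both agents. Again the libraries with 5-FU lay above those without. The rise was 2.02-fold, or 0.59 ± 0.11 (adjusted p = 0.00385), in control mice and 1.75-fold, or 0.49 ± 0.11 (adjusted p = 0.00589), with antibiotics. With a pseudocount of 0.1 the log2 changes were 0.93 and 0.78.

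Nfkbie (chromosome 17, 45555716 to 45563169, plus strand), the gene of IkB-epsilon, was at 5.34, 6.67 and 5.72 RPKM in control and at 7.94, 7.70 and 6.45 RPKM in control 5-FU libraries, and these groups overlapped. Their difference of 0.27 ± 0.10 on the log2 scale was not called (adjusted p = 0.0788). It was called at 0.35 without control replicate 2 (adjusted p = 0.0466) and at 0.49 on the TPM scale (adjusted p = 0.00949). With antibiotics Nfkbie went from 5.04, 5.46 and 6.10 RPKM to 8.27, 8.98 and 7.49 RPKM after 5-FU, without overlap. This rise was 1.49-fold, or 0.50 ± 0.10 (adjusted p = 0.00484). The difference between the 2 changes, 0.23 ± 0.15, was not called (adjusted p = 0.696).

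Nfkbib (chromosome 7, 28758251 to 28767512, minus strand) encodes IkB-beta, an inhibitor that is replaced more slowly than IkB-alpha. It was at 3.28, 2.89 and 2.73 RPKM in control, 3.53, 3.72 and 3.003 RPKM in control 5-FU, 2.71, 2.92 and 2.53 RPKM in antibiotics and 3.28, 3.20 and 3.27 RPKM in antibiotics 5-FU libraries. The last 2 groups did not overlap. Its log2 changes after 5-FU, 0.15 ± 0.080 in control mice (adjusted p = 0.189) and 0.19 ± 0.080 with antibiotics (adjusted p = 0.0895), were not called. On the TPM scale both were, at 0.37 (adjusted p = 0.0198) and 0.41 (adjusted p = 0.00916). Averaged over both antibiotic states the change was 0.17 ± 0.057 (adjusted p = 0.0284). That call was lost when any of 6 libraries was left out singly: control replicate 2 or 3, control 5-FU replicate 2, antibiotics replicate 3, and antibiotics 5-FU replicate 1 or 3, with adjusted p from 0.0542 to 0.069. Nfkbib overlaps Sirt2, on the opposite strand, over 778 bases. Sirt2 was at 1.93 to 2.96 RPKM, and since the strand setting of the counting is not given in the sources used here, reads from the shared bases cannot be told apart.

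Nfkbiz (chromosome 16, 55811375 to 55838899, minus strand) was at 0.194, 0.316 and 0.366 RPKM in control and at 0.290, 0.301 and 0.457 RPKM in control 5-FU libraries, which overlapped. The antibiotics libraries were at 0.252, 0.267 and 0.178 RPKM, all below the antibiotics 5-FU libraries at 0.453, 0.407 and 0.313 RPKM. Fitted without the filter on low values, its log2 change was 0.06 in control mice (adjusted p = 0.700) and 0.17 with antibiotics (adjusted p = 0.168).

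**Figure D2:**
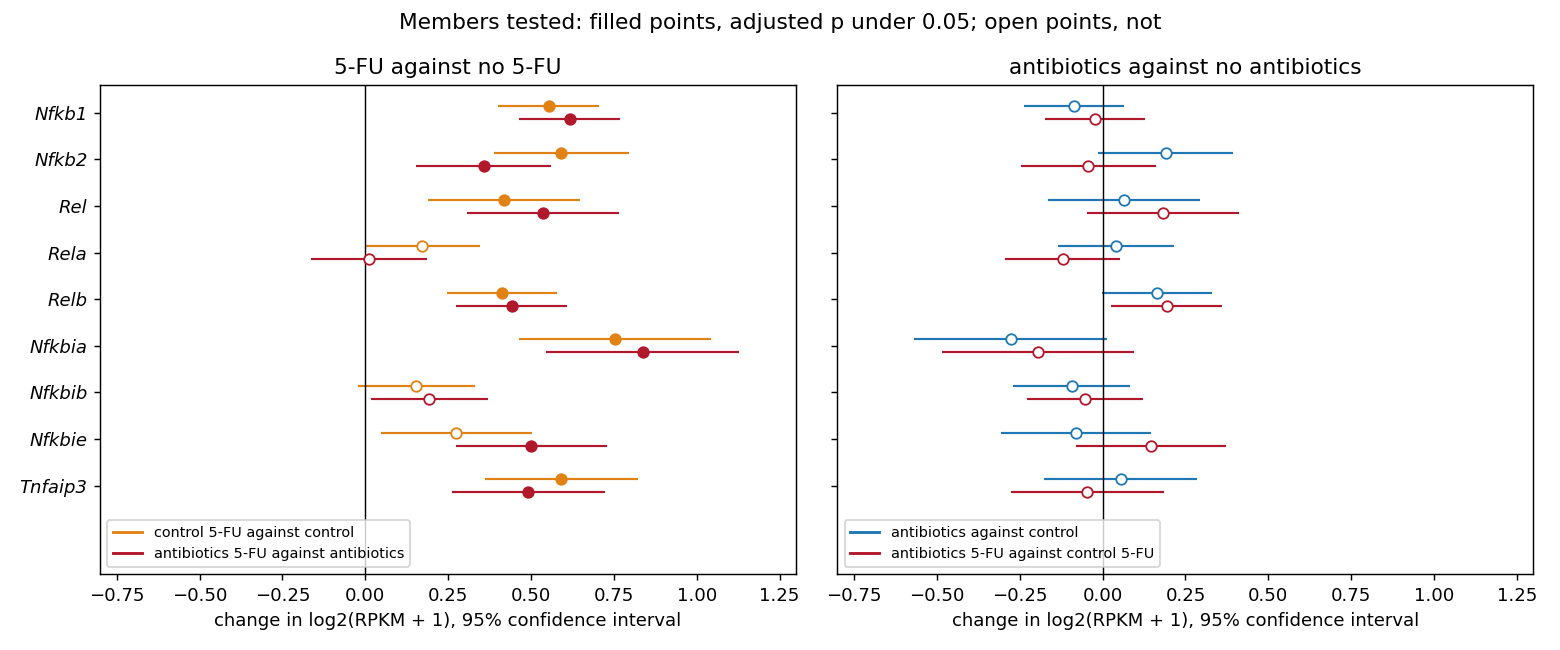
Change in log2(RPKM + 1) of the 9 members tested, with 95% confidence intervals from limma, after 5-FU (left) and with antibiotics (right). Filled points had an adjusted p under 0.05. After 5-FU 6 and 7 members are filled, Rela and Nfkbib in neither comparison, and no point is filled on the right. The filled points include Rel and Relb, which passed the filter only through libraries with 5-FU.

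Antibiotics by themselves moved no member past the threshold. With antibiotics against control, 0 of 9 members were called, where 0.0702% of all tested genes were, and none had an unadjusted p under 0.05. After 5-FU, antibiotics 5-FU against control 5-FU also gave 0 of 9, where 0.117% of all genes were called, and 1 member, Relb, had an unadjusted p under 0.05 (0.0268). The test of whether the change after 5-FU differed with antibiotics called 0 of 9 members, where 0.0117% of all genes were called, and none had an unadjusted p under 0.05. These comparisons share their control and 5-FU libraries with those above. With 3 libraries in a group, a p that misses the threshold does not show that levels were alike.

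Relb lay higher with antibiotics without overlap both at steady state, as did 13.0% of all tested genes, and after 5-FU, as did 11.5% of them. It was the only 1 of the 9 members to do so at steady state, and Rel was the other after 5-FU. Its log2 differences were 0.16 ± 0.076 without 5-FU (adjusted p = 0.287, 95% confidence interval -0.0022 to 0.33) and 0.19 ± 0.076 with 5-FU (adjusted p = 0.264, 0.03 to 0.36). Averaged over both, Relb was 0.18 ± 0.054 higher with antibiotics (adjusted p = 0.0872), where 2.39% of all genes were called. For Nfkbia the averaged difference was -0.24 ± 0.094 (adjusted p = 0.156), with libraries that overlapped in each pair of groups. The remaining members had unadjusted p above 0.05 in this average. At steady state the antibiotics libraries were also the shallower ones, and the part of depth in these differences was not tested.

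The make-up of the subunit pool changed with 5-FU, which can be read within each library without any scaling between libraries. Rela held 61.8% to 62.9% of the summed RPKM of the 5 subunits in control libraries and 58.4% to 61.3% with antibiotics. After 5-FU its share was 48.0% to 54.5% in control and 47.8% to 51.6% in antibiotics libraries, below all libraries without 5-FU. The summed RPKM of the subunits was 16.9 ± 0.343 in control and 23.1 ± 1.14 in control 5-FU libraries (SD, n = 3). With antibiotics it was 18.1 ± 0.508 and, with both agents, 22.3 ± 0.271 RPKM.

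In control mice the other 4 subunits each held a larger mean share after 5-FU. Nfkb2 made up 23.4% ± 1.90 of the pool in control and 28.2% ± 3.72 in control 5-FU libraries. Nfkb1 made up 8.14% ± 0.765 and 10.8% ± 0.442 of it, Rel 3.33% ± 0.603 and 4.70% ± 0.128, and Relb 2.67% ± 0.338 and 4.04% ± 0.332. In antibiotics 5-FU libraries Rel and Relb reached 6.21% ± 1.57 and 5.44% ± 0.772. The ratio of Nfkbia to Rela, the inhibitor to the activating subunit it holds, was 2.83 to 3.78 in control and 4.11 to 5.43 in control 5-FU libraries. With antibiotics it was 2.24 to 3.06, and with both agents 3.81 to 5.19. Transcript shares are not protein shares, and they are given as a description with no test.

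**Figure D3:**
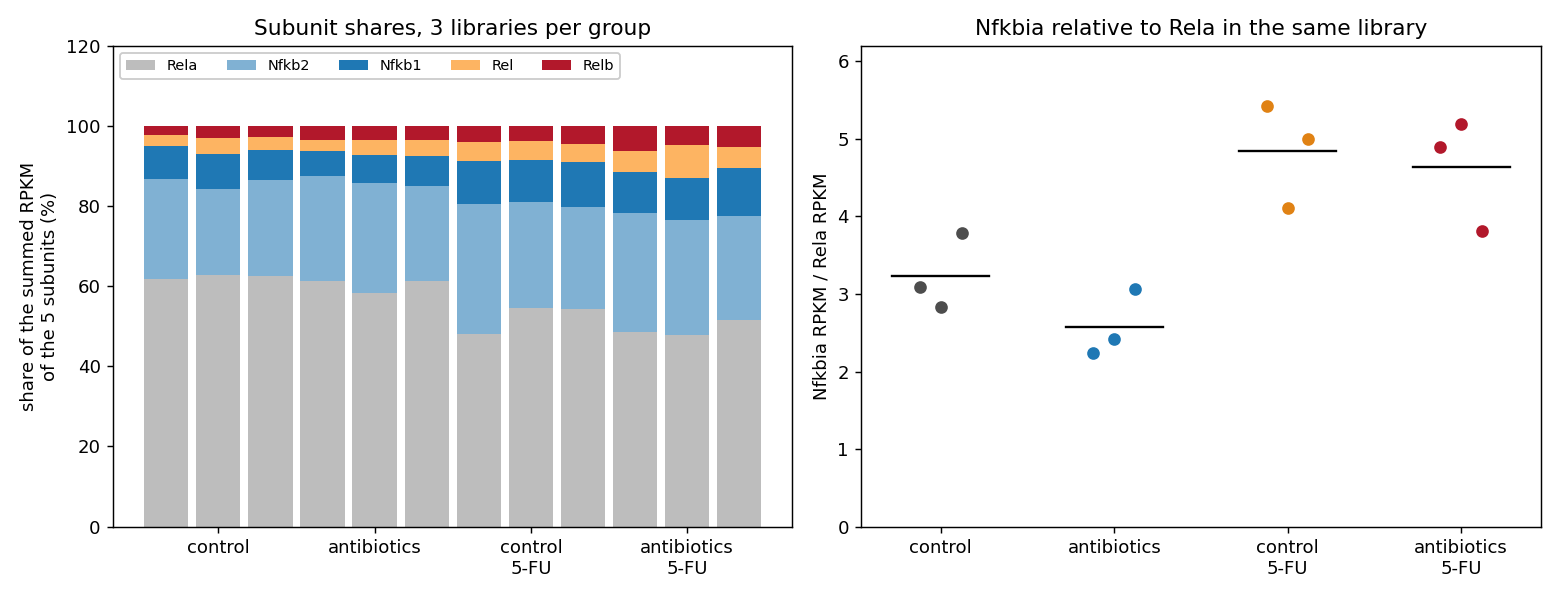
Left, the share of each subunit in the summed RPKM of the 5 subunits, in %, with 1 bar per library. Right, Nfkbia RPKM divided by Rela RPKM in each library (points) with the group mean (bar): ratios with 5-FU lie at 3.81 to 5.43 and ratios without it at 2.24 to 3.78.

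The other genes of the pathway were taken from 6 lists with 100 genes in all, of which 55 were tested. These lists, too, were chosen with earlier results of these data known, so their shares beside those of all genes are a description. In control mice 17 of the 55 rose after 5-FU (30.9%) and 2 fell (3.64%), where 9.74% of all tested genes rose and 11.8% fell. With antibiotics 18 rose (32.7%) and 3 fell (5.45%), where 13.7% of all genes rose and 16.5% fell. The median log2 change was 0.18 in each comparison, against 0.0045 and -0.014 over all genes. Bcl3, Nod1, Irak4 and Csf1 passed the filter only through libraries with 5-FU, so the filter itself favoured a rise for them. Of the other 51 genes, 13 rose in control mice and 14 with antibiotics. Among the kinases 0 of 6 tested genes passed in control mice and 1 of 6 with antibiotics. That was Ikbkb, the gene of IkB kinase beta, whose call was lost under 1 of 18 alternatives, without antibiotics 5-FU replicate 2 (adjusted p = 0.0628).

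Of the 2 other IkB-like proteins, Bcl3, a nuclear partner of p50 and p52, rose from 0.371 ± 0.0654 to 1.03 ± 0.221 RPKM in control mice (log2 change 0.57 ± 0.13, adjusted p = 0.0117) and from 0.383 ± 0.172 to 1.42 ± 0.402 RPKM with antibiotics (0.80 ± 0.13, adjusted p = 0.00133). Nfkbid was not called, at 1.25 ± 0.308 RPKM in control and 0.962 ± 0.462 RPKM in control 5-FU libraries. Among 6 receptors tested, 3 were called higher in each comparison. In both, Nod1 was counted, which passed the filter only through libraries with 5-FU, as did Bcl3. Tlr2, the receptor for bacterial lipoproteins, rose with antibiotics from 4.02 ± 0.263 to 6.76 ± 0.776 RPKM (0.62 ± 0.089, adjusted p = 0.000818) and was at 5.11 ± 0.196 and 6.35 ± 0.654 RPKM in control mice. Tnfrsf1a, the TNF receptor found on most cells, rose by 0.37 ± 0.090 with antibiotics (adjusted p = 0.011).

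Among 14 adaptors tested, 6 rose in control mice, and 4 rose and 1 fell with antibiotics. Those that rose include Irak4 in each comparison, which passed the filter only through libraries with 5-FU. Myd88, the adaptor of Toll-like and interleukin-1 receptors, rose from 15.1 ± 1.15 to 21.7 ± 1.22 RPKM in control mice (0.50 ± 0.087, adjusted p = 0.00355) and from 13.4 ± 1.43 to 22.1 ± 1.05 RPKM with antibiotics (0.68 ± 0.087, adjusted p = 0.000459). Birc3, a ubiquitin ligase of the TNF receptor complex, rose by 0.47 ± 0.098 (adjusted p = 0.0078) and 0.55 ± 0.098 (adjusted p = 0.00224). Bcl10, which links CARD proteins to the kinases, rose by 0.40 ± 0.079 with antibiotics (adjusted p = 0.00382). In the list of ubiquitin chain assembly and removal, 3 of 12 tested genes rose in each comparison and 1 fell in control mice. The 1 that fell was Tnip3 (-0.355 ± 0.093, adjusted p = 0.0211), whose call was lost under 6 of 18 alternatives. Tax1bp1 and Tnip2, which both work with A20, were among those that rose with antibiotics, by 0.50 ± 0.083 (adjusted p = 0.00152) and 0.35 ± 0.086 (adjusted p = 0.0114).

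Of 36 NF-kB target genes 15 were tested, and the called ones went both ways. In control mice 4 rose and 1 fell, and with antibiotics 6 rose and 2 fell. Ccl4, a chemokine, rose from 4.07 ± 0.896 to 9.68 ± 1.65 RPKM in control mice (1.08 ± 0.16, adjusted p = 0.00151) and from 4.82 ± 0.765 to 12.7 ± 1.70 RPKM with antibiotics (1.24 ± 0.16, adjusted p = 0.000442). Csf1, the macrophage growth factor, rose by 0.51 ± 0.097 (adjusted p = 0.00524) and 0.58 ± 0.097 (adjusted p = 0.00166). Tnfsf10, the death ligand TRAIL, rose in control mice from 3.11 ± 0.0523 to 4.81 ± 0.985 RPKM (0.49 ± 0.11, adjusted p = 0.00946). With antibiotics Ier3 rose by 1.03 ± 0.20 (adjusted p = 0.00322) and Gadd45b by 0.71 ± 0.13 (adjusted p = 0.00286). Ebi3, a subunit of interleukin-27 and interleukin-35, fell from 16.6 ± 2.25 to 8.73 ± 1.31 RPKM in control mice (-0.86 ± 0.13, adjusted p = 0.00181) and from 28.2 ± 2.91 to 18.2 ± 2.19 RPKM with antibiotics (-0.60 ± 0.13, adjusted p = 0.00554). Ikbkb, Nod1, Irak4 and Tnip3 lost a call under some alternatives. Nod1 lost it under 13 of 18 in control mice and 9 of 18 with antibiotics, and Irak4 under 2 and 6 of 18. Each other pathway gene given here as risen or fallen kept its call in the comparison shown under all alternatives tried. Among these, Bcl3 and Csf1 passed the filter only through libraries with 5-FU, so their stability adds little. Of the called pathway genes examined, 7 of 17 did so in control mice and 13 of 19 with antibiotics.

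**Figure D4:**
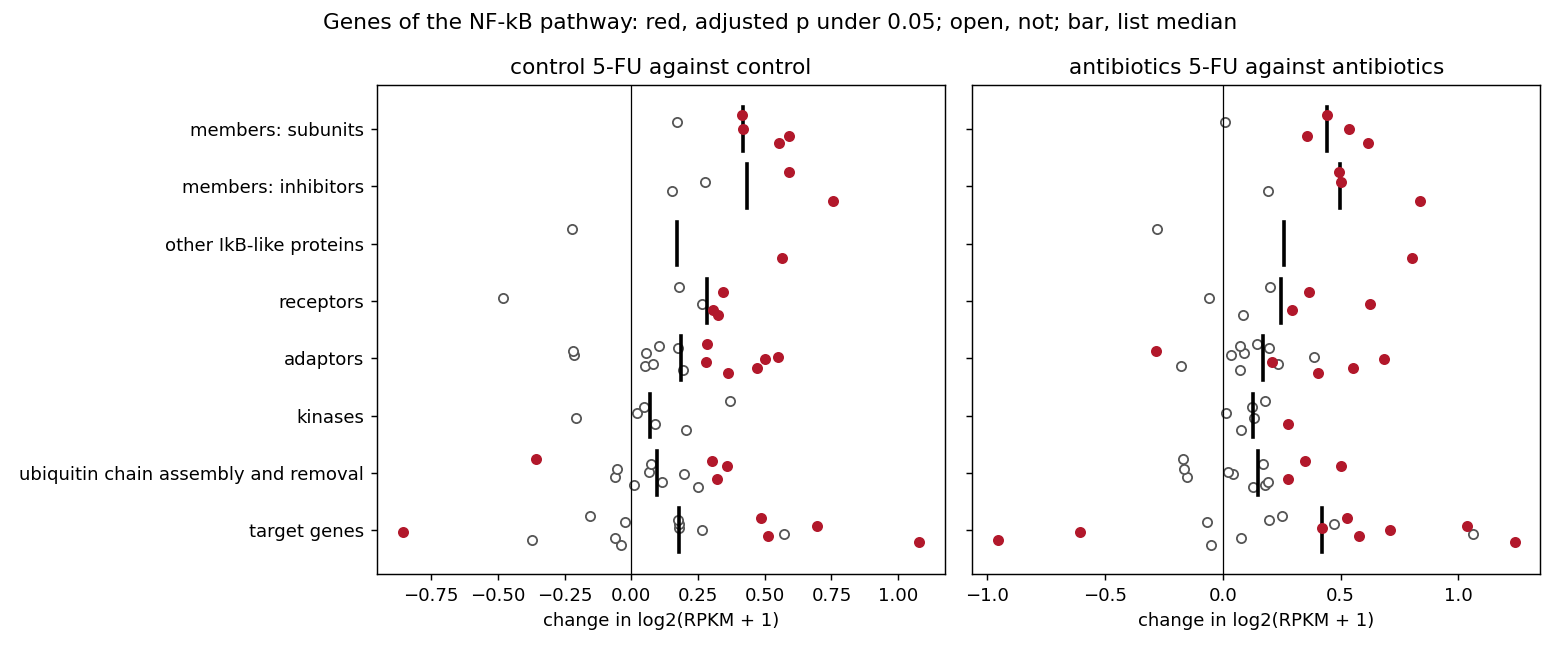
Change in log2(RPKM + 1) of each tested gene after 5-FU, without antibiotics (left) and with them (right), by list. Red points had an adjusted p under 0.05, open points did not, and the bars are list medians, which lie at 0.42 and 0.43 for the subunits and inhibitors in control mice. The subunit median is the value of Rel. Rel, Relb, Bcl3, Nod1, Irak4 and Csf1 are shown, although they passed the filter only through libraries with 5-FU.

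Genes outside the pathway that respond to cell handling moved in the same direction. The summed RPKM of 18 immediate early and dissociation genes was 240 to 252 in control and 328 to 428 in control 5-FU libraries. It was 213 to 306 with antibiotics and 385 to 414 with both agents. Of its 12 tested genes 5 rose in control mice, where 9.74% of all genes did, and 6 with antibiotics, where 13.7% did, and none fell. Nr4a1, among the 6, passed the filter only through libraries with 5-FU, and 5 of the other 11 rose in each comparison. Neither 5-FU comparison overlapped in this sum, as for Nfkbia, and the part of this response in the NF-kB result was not tested.

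Markers of mature cells gave a mixed picture. Summed over 14 neutrophil and monocyte genes, control libraries were at 123 to 135 RPKM, control 5-FU libraries at 133 to 373, antibiotics at 99.99 to 126 and antibiotics 5-FU at 114 to 134 RPKM. Of 5 tested genes 3 rose after 5-FU in control mice, where 9.74% of all genes did: S100a8 (2.70), S100a9 (2.36) and Ngp (2.20). With antibiotics 0 of 5 rose, where 13.7% of all genes did. The same shares of all genes stand beside the counts of the other lists below. The sum of 9 erythroid genes was 29.1 to 305 in control, 144 to 230 in control 5-FU, 40.1 to 58.2 in antibiotics and 167 to 510 RPKM in antibiotics 5-FU libraries. Of its 6 tested genes 1 rose after 5-FU in control mice, where 9.74% of all genes did, and none fell. With antibiotics 3 rose, where 13.7% of all genes did, and none fell. Hbb-bt was called in both comparisons, and Epor and Klf1 with antibiotics. For 9 T and NK cell genes the sums were 25.1 to 39.6, 38.8 to 55.1, 24.2 to 28.2 and 31.9 to 37.7 RPKM in the same order. Of these genes 2 were tested, and 1 was called higher after 5-FU in both comparisons. It was Klrb1c, the gene of the NK cell receptor NK1.1 (1.775, adjusted p = 3.54e-05, and 2.004, adjusted p = 1.49e-05). Of the 9 genes 7 stayed under 1 RPKM in all 12 libraries, and among these Cd3e, Cd3g, Cd8a, Ncr1 and Gzma were at the floor throughout. Klrb1c had group means of only 0.708 to 5.85 RPKM. The other tested gene, which was not called, therefore made up most of these sums in every group. For 8 B cell genes the libraries ranged from 9.90 to 15.8 RPKM in all groups. Summed over 8 macrophage genes they were at 8.28 to 23.0, 13.6 to 28.7, 10.3 to 34.2 and 25.8 to 30.5 RPKM in the same order of groups, and Cd68 was called higher after 5-FU with antibiotics (1.07, adjusted p = 0.0315), 1 of 5 tested. The sum of 7 stromal and endothelial genes was 1.03 to 6.00 in control, 1.69 to 15.7 in control 5-FU, 1.01 to 1.70 in antibiotics and 1.79 to 29.4 RPKM in antibiotics 5-FU libraries. Of its 2 tested genes Pecam1, an endothelial gene that passed the filter only through libraries with 5-FU, was called higher in both comparisons (0.69, adjusted p = 0.00502, and 0.66, adjusted p = 0.00372). The part of such cells in the NF-kB levels was not tested.

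Over the 12 libraries, the 7 members called in at least 1 of the 5-FU comparisons (Nfkb1, Nfkb2, Rel, Relb, Nfkbia, Nfkbie and Tnfaip3) had Pearson r of 0.71 to 0.92 on the log2(RPKM + 1) scale in their 21 pairs, with a median of 0.81. That follows in part from their choice. Rela correlated with the other 9 members at 0.13 to 0.64, with a median of 0.40, Nfkbib at 0.23 to 0.74, with a median of 0.56, and Nfkbiz at 0.23 to 0.67. These values are a description, since the libraries share their groups and most of the variation lies between libraries with and without 5-FU. The genes with the pattern most like that of Nfkb1 were Klrb1c (r = 0.99), Socs3 (0.98) and Myd88 (0.98). Klrb1c, which encodes the NK cell receptor NK1.1, went from 0.865 ± 0.336 to 5.38 ± 1.05 RPKM in control mice and from 0.708 ± 0.113 to 5.85 ± 0.512 RPKM with antibiotics. Socs3, an inhibitor of cytokine receptors, stood at 1.79 ± 0.218 RPKM with antibiotics and at 27.8 ± 2.66 RPKM with both agents. The nearest to Nfkbia were Ctsa (0.97), Chd3 (0.96) and Ly6a (0.96), the last of these the gene of the stem cell antigen Sca-1, at 61.6 ± 5.33 RPKM in control and 126.6 ± 8.72 RPKM in control 5-FU libraries.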

How the data were processed

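RNA sequencing of sorted mouse HSCs was deposited as 1 table of RPKM per gene for 12 libraries, 3 in each of 4 groups. The deposited RPKM were made by the authors from reads aligned to mm10, and the submitters' processing notes name STAR 2.5.3a and Partek. How reads were counted, on which strand, and which gates sorted the cells is not given in the sources used here. A floor of 0.0001 stands in place of 0, and positions are those of the table. The step between low values gave an estimate of depth. Of 2406 to 2930 low values per library, 50.6% to 55.8% came within 2% of a whole read, so reads could not be recovered and count models were not used.

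The scale was log2(RPKM + 1), and the 8553 genes tested reached 1 RPKM in 3 libraries or more. All libraries entered 1 limma fit (version 3.58.1, R 4.3.3) with 4 group means, 8 residual degrees of freedom and variances moderated with an intensity trend (prior df 3.34). Tests were two-sided, with Benjamini-Hochberg adjustment over all tested genes in each comparison and a threshold of 0.05. An average effect is the mean of the 2 comparisons of 1 agent. The script was tested on simulated data. Intervals are limma's own.

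The members and the gene lists were chosen with earlier results of these data known. All members are named. From each pathway list the rule takes called genes with the smallest p. The text gives those that kept their call under all alternatives, with Ikbkb as a count of 1 and Tlr2 in both comparisons. It also names Nfkbid as the other member of its list, Nod1 and Irak4 for how they passed the filter, and Tnip3 as a fall. The 3 genes with the highest correlation name the patterns most like Nfkb1 and Nfkbia. The alternatives were a pseudocount of 0.1, no filter and one of 5 RPKM, TPM, centring on the library median, no intensity trend, fits of 2 groups, a block for the i7 index in antibiotic comparisons, and each library left out in turn. Promoter windows came from RefSeq.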

Additional observations from a re-analysis of the deposited data

How the results depend on the processing

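Of 519 alternative values for the members, 497 kept their direction and their side of the threshold, 11 lost a call, 8 gained one and 3 changed sign. The 3 are of Rela after 5-FU with antibiotics, which was not called: -0.0028 without antibiotics replicate 2, -3.6e-05 without antibiotics replicate 3 and -0.0133 without antibiotics 5-FU replicate 3, in a range of -0.0133 to 0.0347 with 1 library left out. A filter of 5 RPKM tests only 4 members, of which 2 were called after 5-FU in control mice, 3 with antibiotics and 3 in the average. Of all 3709 genes tested with this filter, 370, 500 and 663 rose in the same order. Leaving out 1 library gave 5 to 7 members called after 5-FU in control mice, 6 to 7 with antibiotics, 7 to 9 in the average, and 0 in each antibiotic comparison and the interaction. Over all 8553 genes, 427 to 908, 714 to 1328 and 1416 to 1812 rose in these 5-FU comparisons. No filter gave 5 in control mice, 7 with antibiotics and 8 in the average, where 675, 1164 and 2016 of 26832 genes rose. Of 685 values for other pathway genes 603 kept their call and 82 lost it. In both sets, leaving out a library from outside a comparison of 2 groups could not move the log2 change, only its spread. Such values are counted here and raise the number kept. For the members, a result called in neither fit also counts as kept.

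The background moved more. Over all genes 1846 were called after 5-FU in control mice, against 812 in a fit of the 2 groups alone and 942 to 2078 with 1 library left out. With antibiotics 2586 were called, against 1460 with the filter of 5 RPKM and 1624 to 2876 with 1 library left out, and in the average 3728 against 1984 with that filter. Antibiotics against control gave 6 genes (1 to 29 over the alternatives), antibiotics 5-FU against control 5-FU 10 (3 to 47), the interaction 1 (0 to 7) and the average antibiotic effect 204 (48 to 359). Libraries with and without antibiotics share i7 indexes, and with the index as a block 0 members were called in the 4 antibiotic comparisons, with 20, 22, 0 and 339 genes over all in the same order. The labels give no replicate numbers shared between groups, so no paired analysis by replicate number was possible, and none could pair 5-FU libraries with the others. Depth limits Nfkbiz, Relb and Rel most, which rest on the fewest estimated reads.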
